A study of Arabidopsis thaliana with 10 samples.

Results

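Cytochrome P450 genes were followed through rosette leaves of 5 Arabidopsis thaliana genotypes on ATH1 arrays. The members were the probe sets that the array's annotation assigns to a single gene whose symbol is CYP, a family number, a subfamily letter and a gene number. There were 22 such probe sets among 22746, each for a different gene. The CYP71 family supplied 18, all of subfamily CYP71B, and the families CYP51, CYP78, CYP79 and CYP84 supplied 1 each. The rule used names and no measured value, and P450 genes that the annotation lists under another name were not analysed here. The annotation did not list 8730 of the 22746 probe sets, and any P450 genes among those were not analysed either. The 22 are therefore not a full count of the P450 genes on the array.

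P450 enzymes are haem-thiolate monooxygenases, in plants mostly anchored in the membrane of the endoplasmic reticulum, that draw electrons from NADPH through a reductase and insert an oxygen atom into small molecules. They build hormones, lignin precursors, glucosinolates and phytoalexins, and many are induced by stress or pathogens. CYP71B is a large Arabidopsis subfamily, much of it in tandem arrays, and most of its enzymes have no settled substrate. Its best-known member, CYP71B15 (PAD3), closes the camalexin pathway and was not analysed here.

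The genotypes were wild type Columbia, the flu mutant, and 3 flu lines that also lacked EXECUTER1 (ex1/flu), EXECUTER2 (ex2/flu) or both (ex1/ex2/flu). Without FLU, darkness lets the chlorophyll precursor protochlorophyllide build up, and light then makes it generate singlet oxygen inside the plastid; the EXECUTER proteins act in the signal that leaves the plastid. Soil-grown mature plants had been kept under constant illumination (100 µmol m-2 s-1), spent 8 h in darkness at the start of bolting and were harvested after 30 min of light. Each genotype had 2 arrays, each of material pooled from 5 plants. All 4 flu lines carry a flu allele that came from Landsberg erecta and was backcrossed 5 times to Columbia, and each EXECUTER loss rests on 1 T-DNA insertion allele. In whole leaves, fewer cells of a type and less RNA per cell cannot be told apart.

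The EX1 probe set read between 7.53 and 7.95 on the log2 scale on the arrays of ex1/flu and ex1/ex2/flu and between 9.13 and 9.59 on all others, while FLU and EX2 were not analysed here. Of the leaf markers, RCA (rubisco activase) gave signals of 15260 to 21041. Of 4 root loci, PYK10 gave 627 to 1105 and PRX72 and AT1G30870 at most 34.1. No inflorescence marker was matched to a probe set in the annotation used, so none was read. The median signal of an array was 158 to 171. Spike-in RNAs added before labelling (Dap, Lys, Phe, Thr) set 6 arrays at a mean log2 signal of 6.90 to 7.47 apart from 4 at 6.37 to 6.59. Wild type, flu, ex1/flu and ex2/flu had 1 array in each set, and both ex1/ex2/flu arrays were in the higher set.

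A probe set was tested where its signal reached the 40th percentile of its array (85.5 to 92.6 in signal) on at least 2 of the 10 arrays, as did 13 of the 22 P450 probe sets (59.1%) and 14435 of all 22746 (63.5%). Apart from CYP84A4, which reached the level on 6 arrays, all tested members did so on all 10. The other 9 members did so on none. They were CYP51G2, a relative of the sterol 14-demethylase, CYP79A2, which turns phenylalanine into its oxime for benzylglucosinolate, CYP71B31, a linalool oxidase described in flowers, and CYP71B16, CYP71B21, CYP71B25, CYP71B27, CYP71B37 and CYP71B38. Their highest signals ran from 14.4 (CYP79A2) to 53.5 (CYP51G2), so no difference between genotypes is given for them.

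CYP71B23 (AT3G26210) was the only one of the 13 tested P450 genes that passed the test in any comparison with all 10 arrays in the fit: its RNA was lower in ex2/flu than in flu and lower than in wild type. Its log2 signals were 9.99 and 9.92 in wild type, 10.10 and 9.55 in flu, 9.15 and 9.16 in ex1/flu, 8.92 and 8.50 in ex2/flu, and 9.51 and 8.69 in ex1/ex2/flu. Both ex2/flu arrays lay below all wild type, flu and ex1/flu arrays, and the ex1/ex2/flu arrays were so far apart that 1 lay within the range of ex2/flu and the other just below the lower flu array. No enzymatic role is stated here for CYP71B23, since none is sure.

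Against flu, CYP71B23 in ex2/flu fell by 1.12 ± 0.24 (log2, SE, n = 2 per genotype), a 2.17-fold difference with a 95% interval of -1.64 to -0.60 and a limma adjusted p of 0.043. It was 1 of 13 tested members called in that comparison, where 1.04% of all probe sets were called. This call sat close to its threshold of 0.05. It was lost when any of flu 1 (a difference of -0.84, adjusted p 0.474), ex2/flu 1 (0.071), ex2/flu 2 (0.232), wild type 1 (0.0756) or wild type 2 (0.075) was left out, without the filter (0.0888) and without the intensity trend of the variance (0.142). Within the higher and the lower spike-in set the difference was -1.18 and -1.06, each from 1 array per genotype.

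Against wild type, CYP71B23 in ex2/flu fell by 1.25 ± 0.24 (log2, n = 2 per genotype), a 2.37-fold difference with an interval of -1.76 to -0.73 and a limma adjusted p of 0.00491. It was again 1 of 13 members called, beside 4.77% of all probe sets. The call was lost without wild type 1 (adjusted p 0.0593) or ex2/flu 2 (0.0681), and the difference within the higher and lower spike-in set was -1.004 and -1.487. A moderated F test for any difference among the 5 genotypes also called CYP71B23 and no other member (adjusted p 0.0156, beside 5.29% of all probe sets called), but not without wild type 1 (0.0839), wild type 2 (0.0705) or the intensity trend (0.0938).

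**Figure D1:**
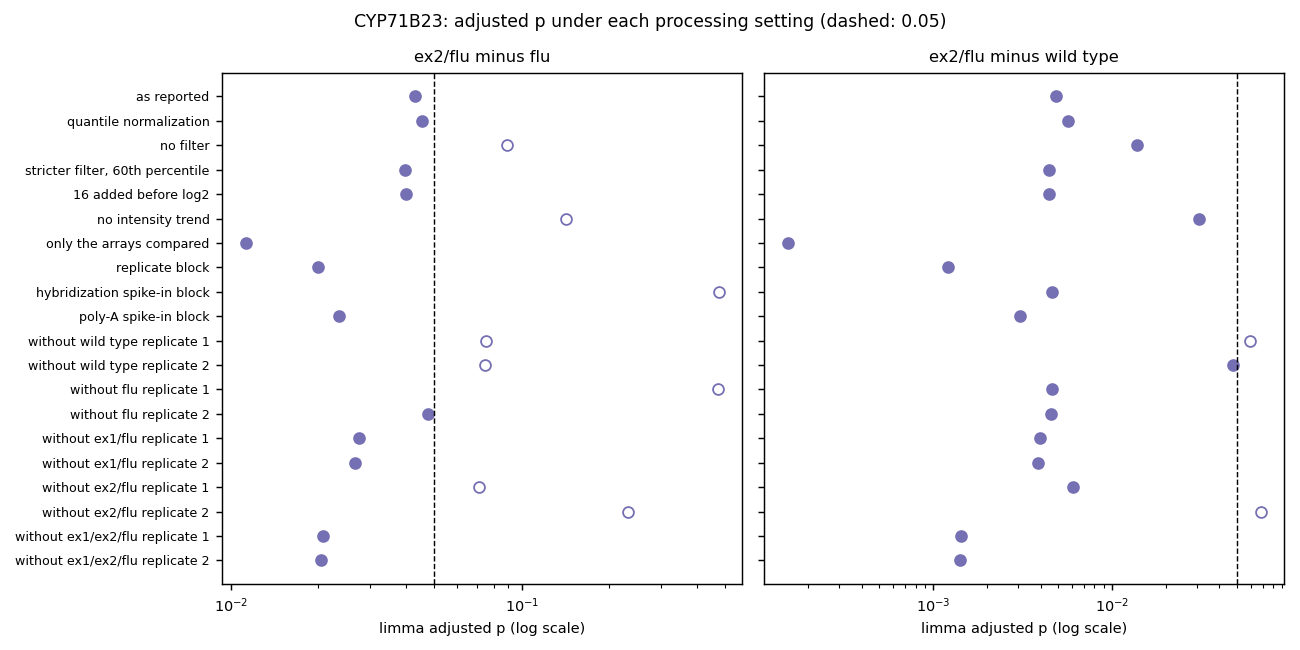
Limma adjusted p (horizontal axis, log scale) of CYP71B23 in ex2/flu against flu and against wild type under each processing setting (vertical axis), with filled points under the dashed line at 0.05. Against wild type the highest value is 0.0681; against flu it is 0.475, with a block for the hybridization spike-ins, which sets flu 1 apart.

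In the other EXECUTER lines CYP71B23 had lower means that did not pass the test with all arrays in the fit. Against flu the difference was -0.67 ± 0.24 in ex1/flu (limma adjusted p 0.223) and -0.73 ± 0.24 in ex1/ex2/flu (0.138), and against wild type it was -0.80 (0.16) and -0.86 (0.132). Without ex1/ex2/flu 1, which lay above the other array of its genotype, the ex1/ex2/flu difference was -1.14 against flu (0.0227) and -1.26 against wild type (0.0263), both called. With only the arrays compared, the ex1/flu difference from wild type was called as well (0.0442). Ex1/flu and ex2/flu were not told apart: ex1/flu stood 0.45 above ex2/flu, with an interval of -0.07 to 0.97 (limma adjusted p 0.799). Ex1/ex2/flu was not compared directly with either of them. The interaction, the effect of losing EX1 without EX2 minus its effect with EX2, was 1.06 ± 0.34 (adjusted p 0.23). In flu against wild type CYP71B23 differed by -0.13, with an interval of -0.64 to 0.39.

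**Figure D2:**
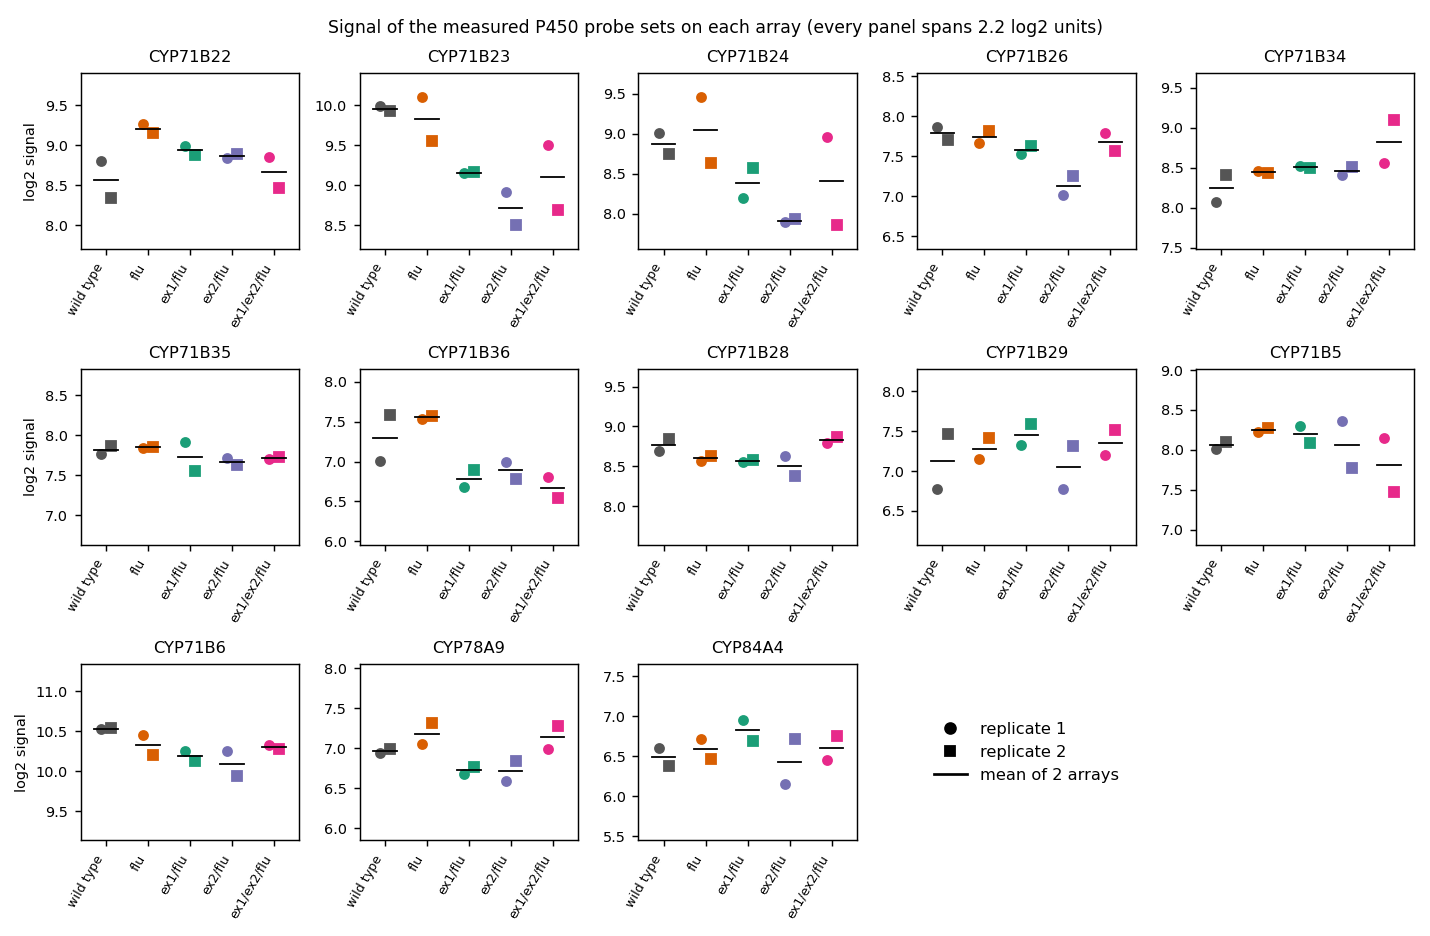
Log2 signal (vertical axis) of the 13 tested P450 probe sets on each of the 10 arrays, by genotype; circles and squares are the replicate arrays, lines the mean of 2, and every panel spans the same number of log2 units. CYP71B23 and CYP71B24 are lowest on average in ex2/flu, with ex1/ex2/flu arrays far apart, while CYP71B28 and CYP71B35 stay within 0.48 and 0.35 log2 units over all arrays.

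CYP71B24 (AT3G26230), another CYP71B gene without a settled role, had differences of like size, and none passed the test between genotypes in the fit of all arrays. Its log2 signals were 9.01 and 8.74 in wild type, 9.46 and 8.63 in flu, 8.20 and 8.57 in ex1/flu, 7.90 and 7.93 in ex2/flu, and 8.95 and 7.85 in ex1/ex2/flu. The ex2/flu arrays lay below all arrays of wild type, flu and ex1/flu, and above the second array of ex1/ex2/flu. Its difference in ex2/flu was -1.13 ± 0.31 against flu (log2, n = 2 per genotype, limma adjusted p 0.0967) and -0.96 ± 0.31 against wild type (0.101). The first was called when ex1/ex2/flu 1 (adjusted p 0.0433) or ex1/ex2/flu 2 (0.0415) was left out, or with only the flu and ex2/flu arrays in the fit (0.0182). The second was called under the matching settings (0.0352, 0.0342 and 0.0025). CYP71B24 varied the most of the tested members between the flu arrays (SD 0.59) and between the ex1/ex2/flu arrays (SD 0.78), against medians over all probe sets of 0.12 and 0.11.

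Over the 10 arrays CYP71B23 and CYP71B24 had a Pearson r of 0.92 (permutation p 0.00031) and a Spearman rho of 0.93 (permutation p 0.00034). After adjustment over the 78 pairs of tested members these were 0.0242 and 0.0265, and no other pair was called by either measure. Without the 2 arrays farthest from the median of CYP71B23, r was 0.89. The arrays are pairs of 5 genotypes and not 10 independent samples, so the p-values take the arrays as more independent than they are. Between replicates, the first array minus the second gave, for CYP71B23 and CYP71B24 in turn, 0.06 and 0.27 in wild type, 0.55 and 0.83 in flu, -0.01 and -0.37 in ex1/flu, 0.42 and -0.03 in ex2/flu, and 0.817 and 1.101 in ex1/ex2/flu. The signs matched in 4 of 5 genotypes and were opposite in ex2/flu. On chromosome 3 a single locus, CYP71B3, lies between them, and whether transcripts of one bind the probes of the other was not tested.

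**Figure D3:**
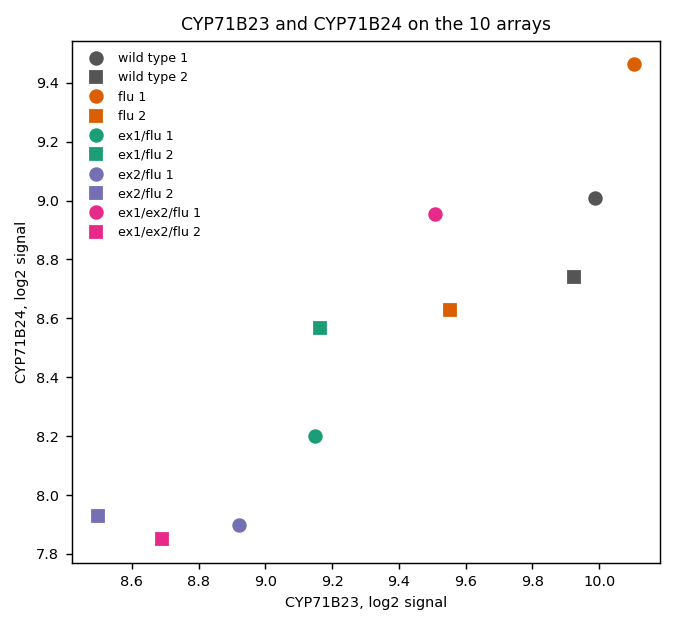
Log2 signal of CYP71B23 (horizontal axis) against CYP71B24 (vertical axis) on the 10 arrays, with a colour for each genotype and a shape for each replicate. The points rise together (Pearson r 0.92), flu 1 is at the upper end, and the ex1/ex2/flu arrays are far apart, 1 near ex2/flu and 1 in the upper part among the flu and wild type arrays.

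The pair belongs to a run of CYP71B genes on chromosome 3. In the RefSeq gene order of assembly TAIR10.1 the run from CYP71B16 to CYP71B37 holds 25 loci, 18 of them with a CYP71B symbol and 11 of them members, of which 7 were tested. FLU is on the same chromosome, with 1663 annotated loci between it and the run, and how far Landsberg erecta sequence reaches around FLU was not tested. Within the run the difference of ex2/flu from flu ranged from -1.13 (CYP71B24) to 0.00 (CYP71B34), with a median of -0.61, beside -0.23 over all 13 tested members and -0.01 over all probe sets. Direct neighbours did not always have like values in ex2/flu against flu: CYP71B22, the locus just before CYP71B23, differed by -0.34 ± 0.19 (limma adjusted p 0.449). CYP71B34 and CYP71B35 had intervals of -0.41 to 0.41 and -0.58 to 0.22 in that comparison.

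**Figure D4:**
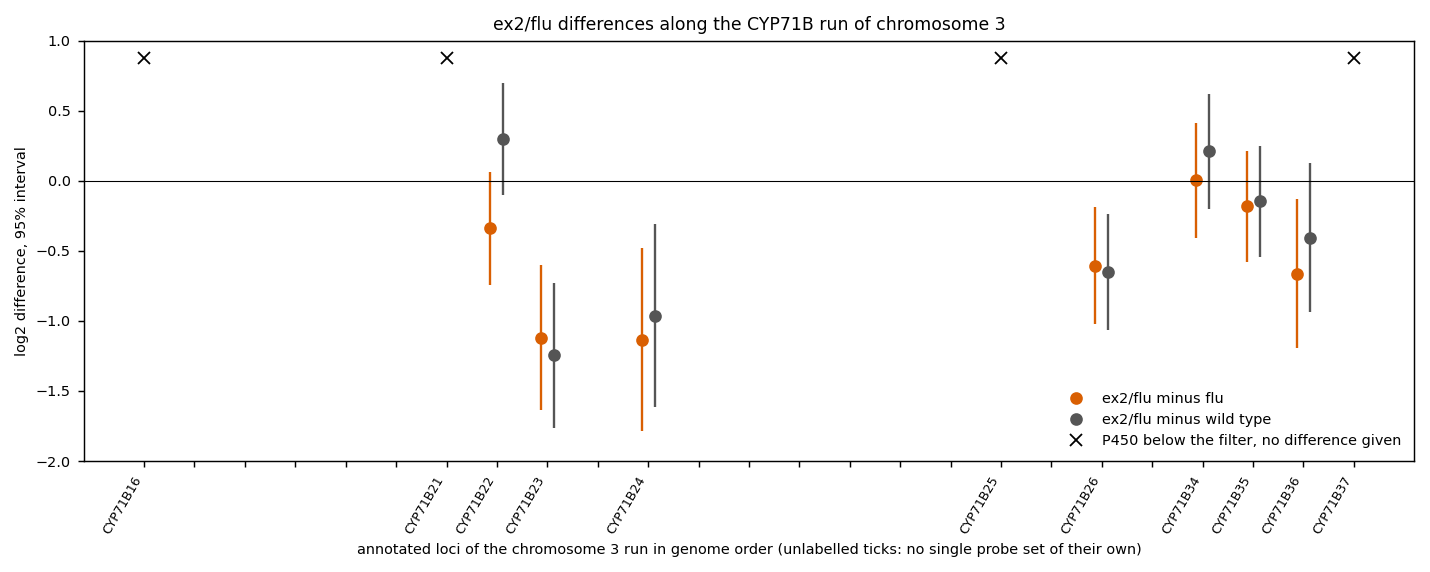
Log2 difference of ex2/flu from flu and from wild type (vertical axis, points with 95% intervals) for P450 genes along the chromosome 3 run, placed by locus order (horizontal axis); crosses at the top are members below the filter. CYP71B23 and CYP71B24 are lowest, CYP71B26 and CYP71B36 are at -0.61 and -0.66 against flu, and CYP71B34 is at 0.00.

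Another member of the run, CYP71B26 (AT3G26290), had its lowest values in ex2/flu. Its log2 signals were 7.87 and 7.71 in wild type, 7.66 and 7.82 in flu, 7.53 and 7.63 in ex1/flu, 7.01 and 7.26 in ex2/flu, and 7.79 and 7.57 in ex1/ex2/flu. Both ex2/flu arrays lay below all others, yet the differences of -0.61 ± 0.20 from flu (n = 2 per genotype, limma adjusted p 0.162) and -0.65 ± 0.20 from wild type (0.0776) were not called. The difference from wild type stayed uncalled under all 19 other settings tried, with a lowest adjusted p of 0.0507.

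CYP71B36 (AT3G26320) was lower in all 3 EXECUTER lines than in flu by mean, without a call. Its log2 signals were 7.01 and 7.58 in wild type, 7.54 and 7.57 in flu, 6.68 and 6.89 in ex1/flu, 6.996 and 6.79 in ex2/flu, and 6.81 and 6.54 in ex1/ex2/flu. The flu arrays lay above those of every EXECUTER line, while the wild type arrays were spread over 0.57 log2 units. The 6.54 of ex1/ex2/flu 2 was just above the filter level of that array, 6.53. The differences from flu, which share the flu arrays, were -0.77 ± 0.25 in ex1/flu (limma adjusted p 0.177), -0.66 ± 0.25 in ex2/flu (0.239) and, with both genes lost, -0.88 ± 0.25 (0.0771). The last was called only in a fit of the flu and ex1/ex2/flu arrays alone (adjusted p 0.0487).

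Flu against wild type holds any response to singlet oxygen together with other differences between these genotypes. All plants were harvested after darkness and light, so these cannot be told apart. No P450 was called by limma in flu against wild type (0 of 13 members, beside 3.84% of all probe sets). Of the 13, 1 had an unadjusted p under 0.05, beside 15.2% of all. CYP71B22 (AT3G26200) came closest, with log2 signals of 8.80 and 8.34 in wild type, 9.27 and 9.15 in flu, 8.99 and 8.88 in ex1/flu, 8.84 and 8.90 in ex2/flu, and 8.85 and 8.47 in ex1/ex2/flu. Both flu arrays lay above all the others, by 0.64 ± 0.19 on average over wild type (adjusted p 0.0824, 0.056 at the lowest under other settings). The remaining 12 members differed from wild type by -0.21 (CYP71B6) to 0.26 (CYP71B36), and the median over 13 was 0.16, beside -0.04 over all probe sets.

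Loss of EX1 in flu gave 0 limma calls among the 13 tested P450 probe sets, beside 1.36% of all probe sets, and 3 of 13 had an unadjusted p under 0.05, beside 13% of all. The differences ran from -0.77 (CYP71B36) to 0.23 (CYP84A4) with a median of -0.14. In ex2/flu against flu 4 of 13 members had an unadjusted p under 0.05, beside 14.1% of all, and 12 of 13 means were lower, beside 51.1%. Means were also lower than in flu for 10 of 13 members in ex1/flu, beside 49% of all. In ex1/ex2/flu they were lower for 9 of 13, beside 43.5%. These comparisons share the flu arrays. Against wild type, means were lower for 4 of 13 members in flu (beside 55.2% of all) and 8 of 13 in ex1/flu (53%). They were lower for 10 of 13 in ex2/flu (57%) and 7 of 13 in ex1/ex2/flu (47.7%). In ex2/flu against wild type 4 of 13 had an unadjusted p under 0.05, beside 16.5%. Loss of both genes gave 0 limma calls of 13, beside 3% of all probe sets, and 3 of 13 had an unadjusted p under 0.05, beside 15.9%. The differences ran from -0.88 (CYP71B36) to 0.37 (CYP71B34) with a median of -0.06. Against wild type, ex1/flu had 0 limma calls of 13, beside 1.58%, and 2 of 13 at an unadjusted p under 0.05, beside 11.2%. For ex1/ex2/flu against wild type the limma count was 0 of 13, beside 1.25%, and 3 of 13 at an unadjusted p under 0.05, beside 10.1%. Ex1/flu against ex2/flu gave 0 of 13 by limma, beside 1.93%, and 1 of 13 at an unadjusted p under 0.05, beside 7.67%. The interaction of ex1 and ex2 gave 0 of 13 by limma, beside 0.201%, and 4 of 13 at an unadjusted p under 0.05, beside 11.6%. With 13 tested members, counts of 0 are near these background shares, and nothing is read from a single call.

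**Figure D5:**
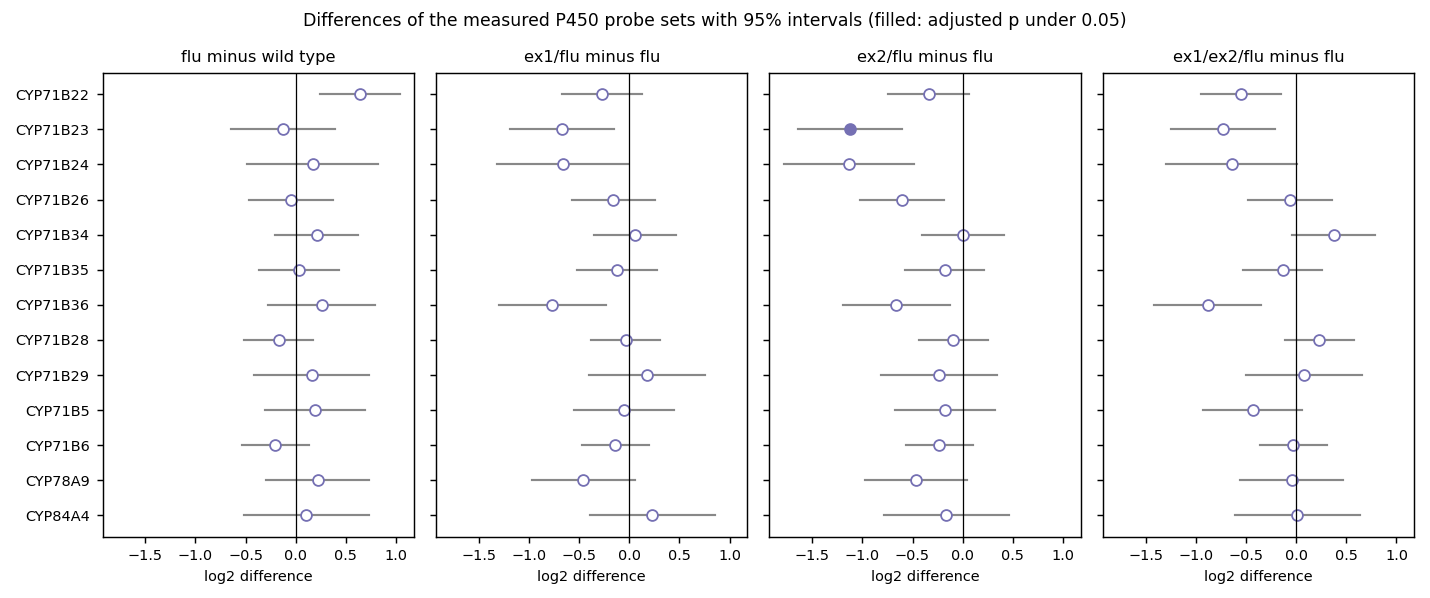
Log2 differences (horizontal axis) of the 13 tested P450 probe sets (vertical axis) in flu against wild type and in each EXECUTER line against flu, with 95% intervals; filled points passed an adjusted p of 0.05. The filled point is CYP71B23 in ex2/flu, and the intervals of most other members span 0 in most comparisons.

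The other CYP71B members had no called difference. CYP71B28 (AT1G13090) and CYP71B29 (AT1G13100), from a shorter run on chromosome 1, ranged over 8.38 to 8.87 and 6.77 to 7.59 on the log2 scale across the arrays. In ex2/flu against flu CYP71B28 differed by -0.09, with an interval of -0.44 to 0.25, and CYP71B29 by -0.23, with an interval of -0.81 to 0.34. CYP71B34 (AT3G26300) stood highest in ex1/ex2/flu, at 8.56 and 9.09, above both wild type arrays at 8.07 and 8.42. That difference of 0.58 ± 0.19 was not called (limma adjusted p 0.222). CYP71B35 (AT3G26310) had the smallest range of the tested members, 7.56 to 7.91, and CYP71B5 (AT3G53280) ranged from 7.47 to 8.36 with arrays far apart in ex2/flu (8.36 and 7.78) and in ex1/ex2/flu (8.15 and 7.47).

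Members with a known role were read one by one. CYP71B6 (AT2G24180), which oxidises indole-3-acetonitrile to indole-3-carboxylic acid derivatives beside the camalexin pathway, had log2 signals of 10.53 and 10.54 in wild type, 10.45 and 10.20 in flu, 10.25 and 10.13 in ex1/flu, 10.25 and 9.94 in ex2/flu, and 10.33 and 10.27 in ex1/ex2/flu. The wild type arrays lay above all others, and the largest difference from wild type, in ex2/flu, was -0.44 ± 0.16 (n = 2 per genotype, limma adjusted p 0.156). CYP78A9 (AT3G61880), which promotes growth of fruits and seeds, had log2 signals of 6.68 and 6.77 in ex1/flu and 6.59 and 6.84 in ex2/flu, below the 7.05 and 7.32 of flu. Neither difference was called (adjusted p 0.449 and 0.408), and ex1/ex2/flu, at 6.99 and 7.28, overlapped with flu. CYP84A4 (AT5G04330), a relative of ferulate 5-hydroxylase used for arabidopyrones, ranged from 6.15 to 6.95, close to the level of the filter, with differences from flu between -0.16 and 0.23.

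Genes listed as acting beside P450 enzymes were read from lists of 80 loci, and a further list held 25 P450 loci annotated under another name. None of the 25 matched a probe set that the annotation assigns to a single gene. The annotation did not list 8730 of the 22746 probe sets, so an unmatched gene may still be on the array. Of the 80, 8 were matched to such a probe set and 2 of these were called in at least 1 of the 9 comparisons, beside 7.97% of all probe sets tested. OPCL1 (AT1G20510), a ligase of the jasmonate pathway and the single matched gene of 7 on that list, fell by 0.74 ± 0.18 on the log2 scale between flu and ex1/ex2/flu (limma adjusted p 0.0378). It rose by 0.77 ± 0.18 from wild type to ex2/flu (0.019), and its difference of ex1/flu from ex2/flu was -0.81 ± 0.18 (0.0255). GSTU20 (AT1G78370), a glutathione transferase linked to aliphatic glucosinolates, fell by 0.65 ± 0.16 in flu against wild type (0.0304). On the same list of 20, BCAT4 and UGT74B1 were not called in any comparison, with flu at -0.53 ± 0.16 (0.0825) and -0.44 ± 0.16 (0.173) from wild type. HCT and DFR of the phenylpropanoid list (2 of 11 matched) and LYC of the carotenoid and abscisic acid list (1 of 14) were also not called. Nor was the diflavin reductase ATR3, the 1 matched gene of 9 listed as electron donors. Whether ATR3 serves P450 enzymes was not tested. The brassinosteroid and gibberellin list and the wax and cutin list had no gene matched in the annotation.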

How the data were processed

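The deposited table held each probe set's signal as a linear intensity, made by the authors with GCOS 1.2 and MAS5, per the submitters' processing notes. The mean between the 2nd and 98th percentile was 499.796 to 499.816 on every array, so the authors had scaled the arrays alike. The sources used here give neither detection calls nor the scaling target or the background correction. The 64 control probe sets did not enter the fit, and log2 signals were used without further normalization. Limma 3.58.1 in R 4.3.3 (lmFit, contrasts.fit, eBayes with trend) took all 10 arrays, estimated a mean for each of the 5 genotypes (5 residual degrees of freedom) and was tested on simulated data. Benjamini-Hochberg adjustment ran over 14435 probe sets, and an adjusted p under 0.05 was called. For 2 arrays against 2 the smallest exact permutation p is 0.333. Correlations were tested with 100000 permutations. Labels name the arrays biological replicates.

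The annotation assigned 13513 probe sets to 1 gene, 503 to several, and did not list 8730. All 22 members matched a locus in RefSeq (TAIR10.1), used for names and gene order. The genes named were the members, the called genes of the partner lists and the matched genes of those lists. Of 14 role lists, 5 held a member and 3 a tested one. The members, lists and settings were chosen with earlier results of these data known. No sequence was read. Python 3.11.15 and matplotlib 3.10.9 drew the figures.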

Additional observations from a re-analysis of the deposited data

How the results depend on the processing

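Alternatives were quantile normalization, no filter, a filter at the 60th percentile, 16 added before log2, no intensity trend, only the arrays compared, a replicate block, blocks for hybridization or poly-A spike-in level, and each array left out. The poly-A block was chosen after seeing the data. The number of P450 probe sets called in ex2/flu against flu (1) was 0 without the filter, 0 without the trend, 0 with the hybridization block, 2 with only the arrays compared, and 0 to 2 without 1 array. Only the arrays compared gave 1 in ex1/ex2/flu against flu (0), 1 in ex1/flu against wild type (0, CYP71B23) and 2 in ex2/flu against wild type (1). Without 1 array these counts were 0 to 2, 0 to 0 and 0 to 2, and 0 to 1 in ex1/ex2/flu against wild type (0), where leaving out ex1/ex2/flu 1 called CYP71B23 (-1.26, adjusted p 0.0263). In ex1/ex2/flu against flu the same array's removal called CYP71B23 (-1.14, 0.0227) and CYP71B24 (-1.19, 0.0448). The F test's count (1) was 0 without the trend and 0 to 2 without 1 array. The counts of 0 in flu against wild type, ex1/flu against flu, ex1/flu against ex2/flu and the interaction stayed 0 under every setting run. The cause of these changes was not tested.

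No difference of CYP71B23 in ex2/flu changed sign; without 1 array it ran from -1.39 to -0.84 against flu and from -1.46 to -1.03 against wild type. With the replicate block its adjusted p was 0.02 and 0.00121, and no P450 count changed. Same-numbered arrays deviated together in 1 of 10 pairs of genotypes, so the numbers were not taken as pairs. That pair was ex1/flu with ex2/flu (correlation 0.43), which are also compared directly above, and the other pairs were at -0.09 to 0.09. Why these arrays deviated together was not tested. OPCL1 kept its calls under 11 of 19, 14 of 19 and 13 of 19 alternatives (ex1/ex2/flu against flu, ex2/flu against wild type, ex1/flu against ex2/flu) and GSTU20 under 15 of 19. The smallest difference of OPCL1 from flu in ex1/ex2/flu was -0.45, without flu 2 (adjusted p 0.357), and GSTU20 in flu was at -0.48 without flu 2 (0.318) and -0.50 without wild type 2 (0.264). Signals were near the filter for CYP84A4, and on some arrays for CYP71B36 and CYP78A9. With these signals and 2 arrays per genotype, small differences were not detectable.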
